A study of Mus musculus with 16 samples.

Results

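The 10 genes described here are reactive and homeostatic astrocyte genes: Gfap, Vim, Lcn2, Aqp4, Gja1, Gjb6, Aldh1l1, Aldoc, S100b and Sox9. They were chosen by name from a table of 55335 annotated genes, and each name matched 1 row. No rule used their measured values, but earlier results of these data were known when they were chosen. Bulk RNA sequencing counts were available for the whole hippocampus of 16 female mice, 4 in each of 4 groups. WT-D mice (C57BL/6J x 129S1) and 3xTg-D mice (B6;129-Psen1tm1MpmTg(APPSwe,tauP301L)1Lfa/Mmjax) received DMSO vehicle, and WT-S and 3xTg-S mice of the same strains received the stearoyl-CoA desaturase (SCD) inhibitor CAY10566. All 16 mice carried an osmotic pump and a cannula that delivered the infusion into a lateral ventricle (ICV) for 28 days, and all were dissected at 10 months of age. The inhibitor was infused at 80 µM, and the infusion held 0.8% DMSO in all 16 mice. The titles and treatment labels name the inhibitor as Cayman 10566, whereas the protocol text shared by the samples names ab142089, and the labels were followed. In 3xTg mice a Thy1 element that is active in neurons drives mutant human APP and tau in animals that also carry a mutant presenilin 1 knock-in. The WT mice were bred as a separate strain, so genotype and strain background cannot be told apart.

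Astrocytes take up glutamate and potassium, move water at their endfeet around vessels, and are joined into networks by gap junctions. After injury, infection or protein deposition they enlarge and raise their intermediate filaments and a set of secreted proteins, a state called reactive astrogliosis. In Alzheimer's disease tissue, reactive astrocytes gather around amyloid plaques, and Gfap is the gene most often used to mark them.

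Each library held between 15413385 and 23590149 reads on genes, and reads outside genes made up 7.82% to 15.1% of those in or outside genes. All 10 genes passed the low-count filter, among 16475 genes tested. Within the groups, 24 pairs of mice differed by 3.80 to 45.5 times the sampling noise of their counts (chi-square per degree of freedom), so every pair differed by more than that noise. A pair of vehicle mice stood apart in the genes described here. WT-D mouse 1 had the highest level of all 16 mice for Vim and Lcn2, and 3xTg-D mouse 2 had the highest level for the other 8 genes. For comparison, 11.6% of all tested genes peaked in 3xTg-D mouse 2 and 5.65% in WT-D mouse 1. Summed microglial markers (6 genes) reached 676.8 CPM (counts scaled to a library of 1e+06 reads, with TMM-normalised library sizes) in 3xTg-D mouse 2 and 529 CPM in WT-D mouse 1, against 311.7 to 459.8 CPM in the other 14 mice. What set these mice apart was not tested, and comparisons that rest on them are given with and without both, a choice made after seeing the data. Because both were picked for high levels of these genes, p-values and DEG calls without them are descriptions and not tests. Fold changes are on the log2 scale and give the second group named over the first, and adjusted p-values are from edgeR's quasi-likelihood test with Benjamini-Hochberg adjustment over all tested genes. WT-D vs 3xTg-D is called the vehicle comparison and 3xTg-D vs 3xTg-S the 3xTg inhibitor comparison.

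The genes spanned a wide range of abundance. Per kilobase of merged exon, Aldoc was highest, with a median of 213.1 CPM per kb over the 16 mice, followed by Gfap at 105.1, S100b at 84.4, Aqp4 at 32.1, Gja1 at 27.2 and Gjb6 at 26.8 CPM per kb. Aldh1l1 (10.1 CPM per kb), Sox9 (8.53 CPM per kb) and Vim (7.81 CPM per kb) were lower, and Lcn2 was lowest at 0.0693 CPM per kb. Neighbours in this order were separated over all 16 mice only between S100b and Aqp4, Gjb6 and Aldh1l1, and Vim and Lcn2. For the remaining neighbours the ranges overlapped, although Aldoc exceeded Gfap, Aqp4 exceeded Gja1, and Aldh1l1 exceeded Sox9 within each of the 16 mice. Gja1 was above Gjb6 in 12 mice and Sox9 above Vim in 9, so these neighbours were not consistently ordered. In bulk tissue, fewer cells of a type and less RNA per cell cannot be told apart.

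Upstream sequence was taken from RefSeq (GRCm38.p6) for the 250 bases before the annotated start, and 8 of the 10 genes matched, with 9 starts. The windows of Gfap, Gja1 and S100b are shown as examples that touch no annotated exon. The Gjb6 window touches none either and is not shown. The windows shown lie at chr11:102897201-102897450 on the minus strand for Gfap, chr10:56377050-56377299 on the plus strand for Gja1 and chr10:76253586-76253835 on the plus strand for S100b, each read 5′ to 3′ toward the start. Capitals mark a match to an AP-1 motif in Gja1 and a nuclear factor I (NFI) half-site in S100b, and Gfap had no match.
Gfap: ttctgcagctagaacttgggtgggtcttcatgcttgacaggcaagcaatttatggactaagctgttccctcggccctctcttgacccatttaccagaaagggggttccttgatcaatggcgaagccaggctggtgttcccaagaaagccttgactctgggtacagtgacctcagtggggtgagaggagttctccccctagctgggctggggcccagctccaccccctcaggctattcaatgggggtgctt
Gja1: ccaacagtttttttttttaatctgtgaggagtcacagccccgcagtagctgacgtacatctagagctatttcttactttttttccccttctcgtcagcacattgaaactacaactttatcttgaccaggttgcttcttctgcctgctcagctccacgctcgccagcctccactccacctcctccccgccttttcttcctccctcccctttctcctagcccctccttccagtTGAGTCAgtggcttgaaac
S100b: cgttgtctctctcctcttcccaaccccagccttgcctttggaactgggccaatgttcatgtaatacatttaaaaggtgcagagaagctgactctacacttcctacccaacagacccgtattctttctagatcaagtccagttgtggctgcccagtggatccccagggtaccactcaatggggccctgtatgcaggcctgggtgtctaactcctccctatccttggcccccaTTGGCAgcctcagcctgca
Both strands were searched for STAT (TTCNNNGAA), AP-1 (TGANTCA) and the NFI half-site (TTGGCA), which occurred in 7.02%, 6.75% and 12.3% of 32851 promoter windows of this length. The AP-1 match of Gja1 lay 19 to 13 bases before the start and the NFI match of S100b lay 19 to 14 bases before it. Lcn2 and Aldoc each held 1 NFI half-site, the second start of Aldoc held 2 STAT matches, and Vim, Aldh1l1 and Gjb6 held none. A match here describes letters in a window and not factor binding.

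None of the 10 genes was a differentially expressed gene (DEG, edgeR quasi-likelihood test, p of 0.01 or less, the threshold of the study) in any of the 6 comparisons. In the vehicle comparison 0 of 10 passed, where 4.91% of all tested genes did. In the 3xTg inhibitor comparison 0 of 10 passed against 0.904% of all genes. The shares of all genes called were 4.26% in WT-S vs 3xTg-S, 0.188% in WT-D vs WT-S, 5.69% in WT-D vs 3xTg-S and 0.595% for the genotype by inhibitor interaction. At p of 0.05 or less, 4 of the 10 passed in the vehicle comparison (Gfap, S100b and Sox9 with estimates above 0, Lcn2 below), where 12.6% of all genes did. At the same threshold 3 of the 10 (Gfap, Vim and Sox9, all with estimates below 0) passed in the 3xTg inhibitor comparison, where 6.33% of all genes did. The corresponding numbers were 0 for WT-S vs 3xTg-S, 1 for WT-D vs WT-S, 2 for WT-D vs 3xTg-S and 3 for the interaction. Among the 16475 genes tested (16474 in WT-D vs WT-S), 1769, 371, 2159 and 821 passed in the same order. The study applied its threshold to a likelihood ratio test of DESeq2 run through the TCC package, which was not used here. A DESeq2 likelihood ratio test without TCC called 2 of the 10 in 3xTg-D vs 3xTg-S, 1 in WT-D vs 3xTg-S and 1 for the interaction, and 0 in the other 3 comparisons. By that test the shares of all genes called were 1.01%, 6.28% and 0.694% in those 3, and 5.3%, 4.59% and 0.262% in WT-D vs 3xTg-D, WT-S vs 3xTg-S and WT-D vs WT-S. No gene of the 10 had groups that did not overlap in any of the 5 pairwise comparisons, whereas 8.17% of all genes were fully separated in the vehicle comparison and 3.16% in the 3xTg inhibitor comparison.

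The direction of the point estimates differed between the comparisons. In the vehicle comparison, 8 of 10 log2 fold changes were above 0, with a median of 0.19 against 0.00 for all tested genes. In the 3xTg inhibitor comparison all 10 were below 0, with a median of -0.31 against 0.01 for all genes. These comparisons share the 3xTg-D mice, so they are not independent. In WT-S vs 3xTg-S, 8 of 10 were below 0 (median -0.12), and in WT-D vs WT-S 5 were above and 5 below (median -0.01). Leaving out WT-D mouse 1 and 3xTg-D mouse 2 gave a median of 0.06 in the vehicle comparison, with 7 of 10 above 0, and of -0.13 in the 3xTg inhibitor comparison, with 2 of 10 above 0. The plot of fold changes by gene shows both sets of estimates with their intervals.

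**Figure D1:**
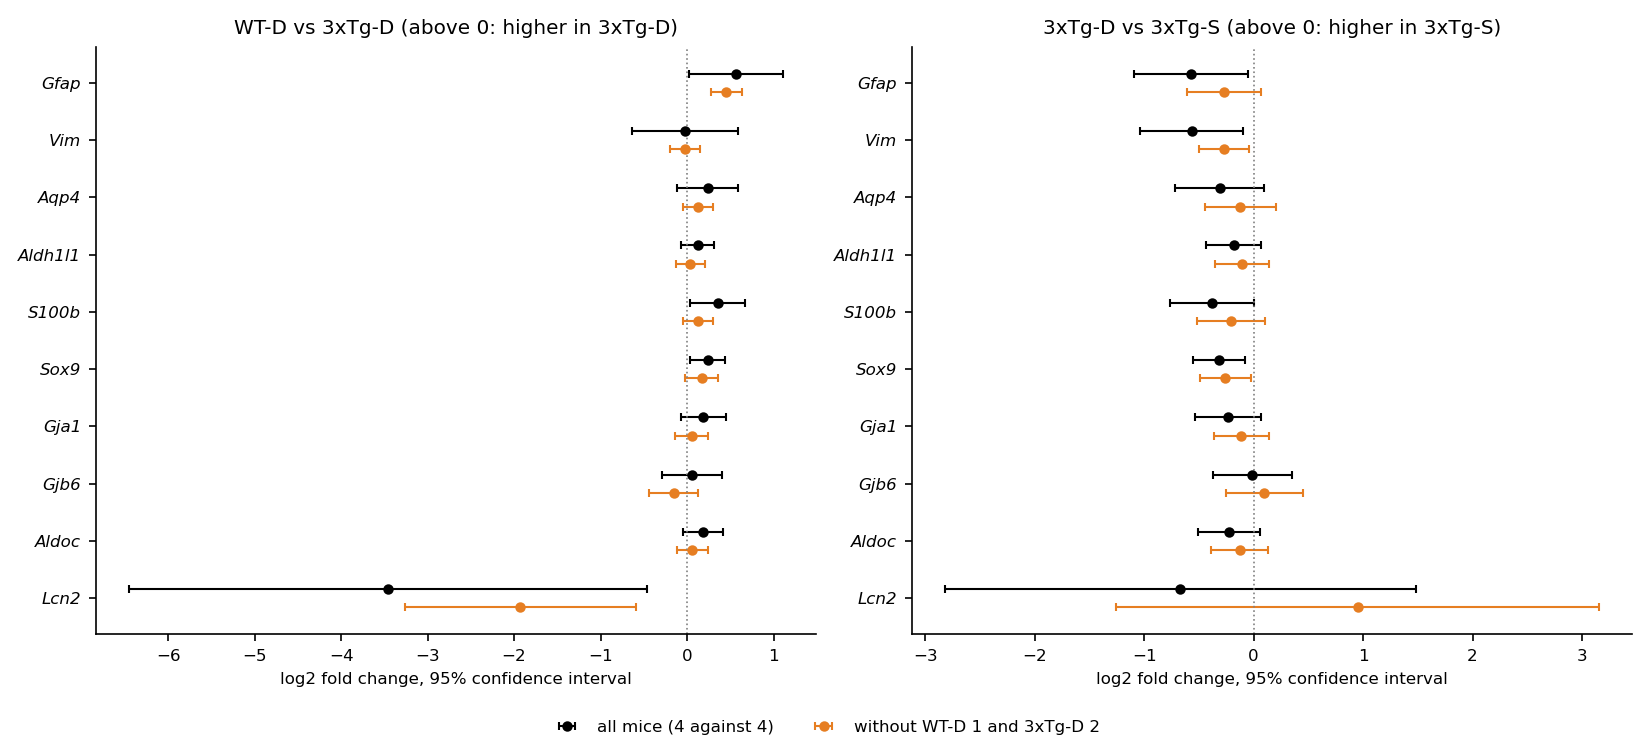
Log2 fold changes of the 10 genes (x axis, points) with 95% intervals (bars), for the vehicle comparison (left) and the 3xTg inhibitor comparison (right), with all mice in black and without WT-D 1 and 3xTg-D 2 in orange. With all mice, 8 of 10 estimates lie above 0 in the first comparison and all 10 below 0 in the second.

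Gfap, the intermediate filament protein that marks astrocytes and their reactive state, lies on chromosome 11 (102887336 to 102900912, minus strand, GRCm38; ENSMUSG00000020932.14). Its level in WT-D mice 1 to 4 was 664.6, 441.7, 403.7 and 414.9 CPM. In 3xTg-D mice it was 615.5, 1118, 617.9 and 498.4 CPM. One mouse in each vehicle group was far above its group, WT-D 1 and 3xTg-D 2, and the ranges overlapped only through WT-D 1. WT-S mice ranged from 385.5 to 443.3 CPM, with a mean of 422.7 ± 27.3 (SD, n = 4), the narrowest spread of the 4 groups. 3xTg-S mice had 523.1, 601.7, 419.8 and 377.6 CPM, so 2 of them were within the WT-S range or below it and the others above it.

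The Gfap fold change in the vehicle comparison was 0.57 (SE 0.25, 95% interval 0.02 to 1.11, adjusted p = 0.367). In the 3xTg inhibitor comparison it was -0.57 (SE 0.24, interval -1.09 to -0.05, adjusted p = 0.722). WT-S vs 3xTg-S gave 0.17 (SE 0.13, adjusted p = 0.704) and WT-D vs WT-S gave -0.19 (SE 0.15, adjusted p = 0.9995). Once WT-D 1 and 3xTg-D 2 were both left out, the Gfap estimate of the vehicle comparison was 0.46 (SE 0.08, interval 0.28 to 0.63, adjusted p = 0.0138). It passed the DEG threshold, where 5% of all genes were called. Leaving out the highest Gfap value of each group narrows the spread, so this p-value is not a valid test of genotype. In the same fit microglial markers also had estimates above 0, 6 of 6 with a median of 0.25, and Tmem119 (0.38) and Csf1r (0.26) were DEGs. The part of microglial markers in the Gfap value was not tested. The remaining 3 WT-D mice lay between 403.7 and 441.7 CPM, apart from the remaining 3xTg-D mice at 498.4 to 617.9 CPM. Leaving out WT-D 1 is enough to open this gap. Leaving out WT-D 1 alone also made Gfap a DEG, at 0.76, and leaving out 3xTg-D 2 alone gave 0.26, short of the threshold. In the 3xTg inhibitor comparison, the Gfap value without both mice was -0.27 (SE 0.15, adjusted p = 0.9992), and none of the 10 genes passed where 0.545% of all genes did.

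**Figure D2:**
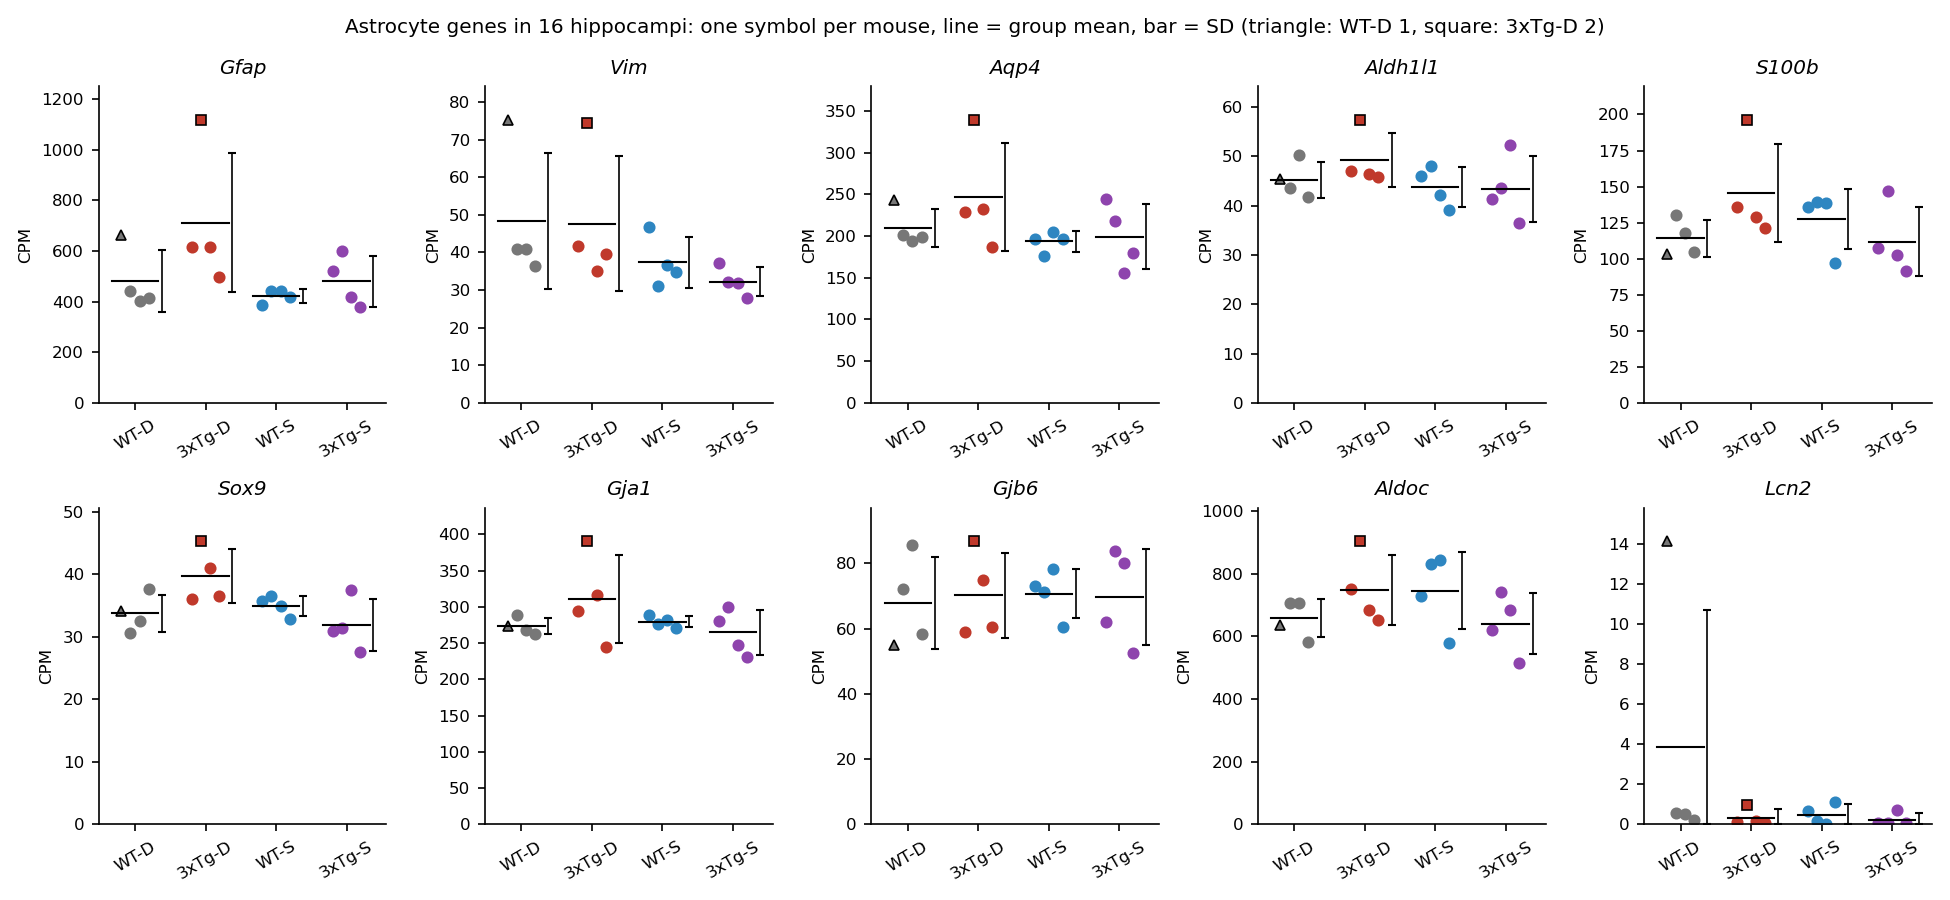
Level of each of the 10 genes (CPM, y axis) in each mouse of the 4 groups, as 1 symbol per mouse (triangle for WT-D 1, square for 3xTg-D 2), with the group mean as a line and the SD as a bar. WT-D 1 and 3xTg-D 2 sit above the rest of their groups for Gfap and Vim, and Lcn2 is high only in WT-D 1, at 14.1 CPM.

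Vim, the filament protein that co-assembles with Gfap in reactive astrocytes and is also made by endothelial and ependymal cells, lies on chromosome 2 (13573927 to 13582826, plus strand, GRCm38; ENSMUSG00000026728.9). WT-D mice had 75.2, 41.0, 40.8 and 36.5 CPM and 3xTg-D mice had 41.6, 74.3, 35.1 and 39.5 CPM. The same pair of mice stood out as for Gfap, at nearly equal levels, and the other 6 vehicle mice lay between 35.1 and 41.6 CPM. WT-S mice had 46.9, 31.0, 36.8 and 34.8 CPM and 3xTg-S mice 37.3, 32.1, 31.8 and 28.0 CPM. The genotype difference under vehicle was -0.02 (SE 0.28, interval -0.63 to 0.59), an interval that still holds the Gfap estimate.

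The Vim fold change in the 3xTg inhibitor comparison was -0.57 (SE 0.21, adjusted p = 0.722), and -0.27 (SE 0.10, adjusted p = 0.9992) in the fit without WT-D 1 and 3xTg-D 2. In WT-D vs WT-S it was -0.37 (SE 0.22, adjusted p = 0.9995). Same-numbered mice deviated together there, and with a replicate block in the fit Vim was -0.33 (SE 0.10, adjusted p = 0.920), past the DEG threshold, where 0.698% of all genes were called. Without WT-D 1 and without the block, Vim was -0.07 in WT-D vs WT-S and not a DEG. WT-D vs 3xTg-S gave -0.61 (SE 0.21, adjusted p = 0.232). Vim passed the DEG threshold in the 3xTg inhibitor comparison without 3xTg-D 3 (-0.69), and against WT-D without WT-D 4 (-0.72), whereas without WT-D 1 the latter was -0.31 and not a DEG. Summed ependymal markers (6 genes) were lower in every 3xTg-S mouse (13.7 to 15.2 CPM) than in the other 12 mice (20.2 to 33.2 CPM), and their part in the Vim values was not tested. Summed endothelial markers (5 genes) lay at 79.9 to 103.1 CPM in 3xTg-D mice and, in 3xTg-S mice, at 93.8 to 119.3 CPM.

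Lcn2, a secreted siderophore-binding protein that rises steeply in reactive astrocytes after inflammatory stimuli and is also made by neutrophils, lies on chromosome 2 (32384633 to 32388252, minus strand, GRCm38; ENSMUSG00000026822.14). Reads numbered 335, 12, 10 and 4 in WT-D mice, 2, 23, 3 and 1 in 3xTg-D mice, 14, 3, 0 and 21 in WT-S mice and 1, 2, 11 and 1 in 3xTg-S mice. A single mouse, WT-D 1, held most of the signal at 14.1 CPM, and the 15 others were at or below 1.14 CPM. A count of 0, as in WT-S mouse 3, allows up to 3 reads or 0.138 CPM.

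The Lcn2 fold change of -3.46 in the vehicle comparison (SE 1.35, adjusted p = 0.319) rested on WT-D 1, since it was -0.28 without that mouse. With 3xTg-D 2 left out as well it was -1.93 (SE 0.61, adjusted p = 0.187), a DEG that rests on 4 to 12 reads a mouse in WT-D against 1 to 3 in 3xTg-D. WT-D vs WT-S gave -3.03 (SE 1.31, adjusted p = 0.9995), and 0.15 without WT-D 1. WT-D vs 3xTg-S gave -4.16 (SE 1.47, adjusted p = 0.236), and passed the DEG threshold at -4.55 without WT-D 4. That comparison too rested on WT-D 1, since Lcn2 was -0.98 without it and not a DEG. The 7 neutrophil markers summed to at most 0.771 CPM in any mouse, and Elane was at 0 in all 16. In WT-D 1 the A1 reactive list, 12 genes induced in astrocytes by inflammatory stimuli, summed to 425.3 CPM, against 281.3 CPM in 3xTg-D 2 and 135.7 to 197.1 CPM in the other 14 mice.

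Aqp4, the water channel of astrocyte endfeet on chromosome 18, measured 243, 201.5, 193.7 and 199.2 CPM in the WT-D mice. The 3xTg-D mice had 229.1, 339.1, 232.5 and 186.3 CPM. 3xTg-D 2 was again the highest, and the groups overlapped. WT-S mice ranged from 176.2 to 205.4 CPM and 3xTg-S mice from 155.8 to 243.8 CPM. The Aqp4 fold change was 0.24 in the vehicle comparison (SE 0.16, adjusted p = 0.583) and -0.31 in the 3xTg inhibitor comparison (SE 0.18, adjusted p = 0.723). Leaving out both outlying mice gave 0.12 (SE 0.08, adjusted p = 0.631) and -0.12 (SE 0.15, adjusted p = 0.9992).

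Gja1 (connexin 43) and Gjb6 (connexin 30) form the gap junctions that couple astrocytes. Gja1 in 3xTg-D mice was 294.1, 390.3, 316.3 and 244.1 CPM, while WT-D mice lay between 263.3 and 289.2 CPM. The 3xTg-D group therefore held both the highest value and a value below every WT-D mouse. WT-S mice were close together, at 271.3 to 288.8 CPM, and 3xTg-S mice ranged from 231.2 to 300.0 CPM. The Gja1 fold change was 0.19 in the vehicle comparison (SE 0.12, adjusted p = 0.557) and -0.23 in the 3xTg inhibitor comparison (SE 0.13, adjusted p = 0.722). Leaving out both outlying mice gave Gja1 values of 0.06 and -0.11. Gjb6 group means lay between 67.7 ± 14.1 CPM (WT-D) and 70.7 ± 7.47 CPM (WT-S, SD, n = 4 each), and the Gjb6 fold change was 0.06 in the vehicle comparison (interval -0.29 to 0.41) and -0.01 in the 3xTg inhibitor comparison (interval -0.37 to 0.35). Both genes were highest in 3xTg-D 2 and lowest in 3xTg-S 4.

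Aldh1l1, a folate enzyme used as a pan-astrocyte marker, and Aldoc, the brain aldolase enriched in astrocytes, are used to mark astrocytes in both resting and reactive states. Aldh1l1 averaged 45.2 ± 3.70 CPM in WT-D mice and 49.2 ± 5.46 CPM in 3xTg-D mice under vehicle, and with the inhibitor 43.7 ± 3.99 CPM in WT-S mice and 43.4 ± 6.66 CPM in 3xTg-S mice (SD, n = 4 each). The 4 groups overlapped. Its fold changes were 0.13 in the vehicle comparison (SE 0.09, adjusted p = 0.597) and -0.18 in the 3xTg inhibitor comparison (SE 0.11, adjusted p = 0.728), and 0.04 and -0.11 without both outlying mice. Of the Aldh1l1 exon bases, 13.4% overlap other annotated genes, including Gm15756 on the opposite strand, and the strand setting of the counting is not given in the sources used here, so its counts are less certain. Aldoc averaged 657.9 ± 59.95 CPM in WT-D mice and 747.9 ± 111.3 CPM in 3xTg-D mice under vehicle, and with the inhibitor 745.8 ± 122.4 CPM in WT-S mice and 640.2 ± 97.95 CPM in 3xTg-S mice (SD, n = 4 each). The Aldoc estimate for the inhibitor was 0.18 in WT (SE 0.12) and -0.22 in 3xTg (SE 0.13). The interaction, the difference of these effects fitted over 16 mice, was -0.41 (SE 0.19, adjusted p = 0.788). Without WT-S 4 it was -0.53, past the DEG threshold, where 2.31% of all genes were called against 0.595% with all mice. Without 3xTg-D 2 the Aldoc interaction was -0.32 and not a DEG.

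S100b, a calcium-binding protein of astrocytes that is also made by oligodendrocyte lineage and ependymal cells, measured 103.2, 130.5, 117.9 and 104.8 CPM in the WT-D mice. The 3xTg-D mice had 135.8, 196.2, 128.8 and 121.6 CPM. WT-S mice had 136, 139.5, 138.6 and 96.7 CPM and 3xTg-S mice 107.1, 146.6, 102.8 and 91.1 CPM. 3xTg-D 2 was well above the rest, 3 of 4 WT-S mice lay above every WT-D mouse, and WT-S 4 lay below all of them. The S100b fold change was 0.36 in the vehicle comparison (SE 0.14, adjusted p = 0.332) and 0.13 without both outlying mice (SE 0.08, adjusted p = 0.620). In the 3xTg inhibitor comparison it was -0.38 (SE 0.17, adjusted p = 0.722), and the S100b interaction was -0.54 (SE 0.23, adjusted p = 0.788). Without 3xTg-S 2 both passed the DEG threshold (-0.55 and -0.72). The share of all genes called was then 4.53% and 2.95%, against 0.904% and 0.595% with all mice. The interaction also passed without WT-S 4 (-0.68), where 2.31% of all genes were called. Without 3xTg-D 2 neither the 3xTg inhibitor comparison (-0.21) nor the interaction (-0.38) passed. The S100b interaction was -0.33 (SE 0.22, adjusted p = 0.9745) without both outlying mice. Summed oligodendrocyte markers (6 genes) lay at 5531 to 6607 CPM in 3xTg-D mice, above all WT-D mice at 4267 to 5057 CPM, while WT-S mice spanned 3365 to 5196 CPM and 3xTg-S mice 4228 to 6620 CPM. Of these markers 3 of 6 were DEGs that rose in the vehicle comparison, Mbp and Mobp among them. Mag and Cnp (2 of 6) were DEGs that fell in the 3xTg inhibitor comparison, and all 6 estimates were below 0 (median -0.36). The part of the markers in the S100b values was not tested.

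Sox9, the transcription factor that maintains astrocyte identity, measured 34.1, 30.6, 32.5 and 37.6 CPM in the WT-D mice. The 3xTg-D mice had 36.0, 45.2, 41.0 and 36.5 CPM. WT-S mice lay between 32.8 and 36.5 CPM, and 3xTg-S mice had 30.9, 31.4, 37.5 and 27.5 CPM. Only WT-D 4 kept the vehicle groups from separating, and 3 of 4 3xTg-S mice lay below every WT-S mouse. The Sox9 fold change was 0.24 in the vehicle comparison (SE 0.09, adjusted p = 0.301) and -0.32 in the 3xTg inhibitor comparison (SE 0.11, adjusted p = 0.722). Its interaction was -0.37 (SE 0.13, adjusted p = 0.788). The interaction passed the DEG threshold, at -0.48 to -0.42, in 5 of the 16 fits that left out 1 mouse. These left out WT-D 4, 3xTg-D 1, 3xTg-D 4, WT-S 4 or 3xTg-S 3. The 3xTg inhibitor comparison passed without 3xTg-S 3 (-0.42). Those interaction fits called 0.43% (without 3xTg-D 1) to 2.31% (without WT-S 4) of all genes, and that 3xTg inhibitor fit called 0.527%. Without 3xTg-D 2 the Sox9 interaction was -0.32 and not a DEG. Leaving out both outlying mice gave Sox9 values of 0.17 (SE 0.09, adjusted p = 0.507) in the vehicle comparison and -0.26 (SE 0.11, adjusted p = 0.9992) in the 3xTg inhibitor comparison. The Sox9 interaction was then -0.32 (SE 0.14, adjusted p = 0.9745).

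Much of the spread was shared between genes within a mouse. Relative to the median of the other 15 mice, the 10 genes in 3xTg-D 2 had a median deviation of 0.59 on the log2 scale, led by Lcn2 (2.03), Gfap (1.34) and Vim (1.01). In WT-D 1, Lcn2 (5.77), Vim (1.03) and Gfap (0.58) were high, while S100b (-0.32) and Gjb6 (-0.39) were below the median of the others. The elevation in WT-D 1 thus involved Lcn2, the filament genes and, to a lesser degree, Aqp4 (0.29), whereas the elevation in 3xTg-D 2 covered all 10 genes. At the low end, 8 of the 10 genes were lowest in 3xTg-S 4 (median deviation -0.39), where 11.2% of all genes were lowest. That library also had the largest share of reads outside genes, 15.1%, and the part of this share in the low values was not tested.

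**Figure D3:**
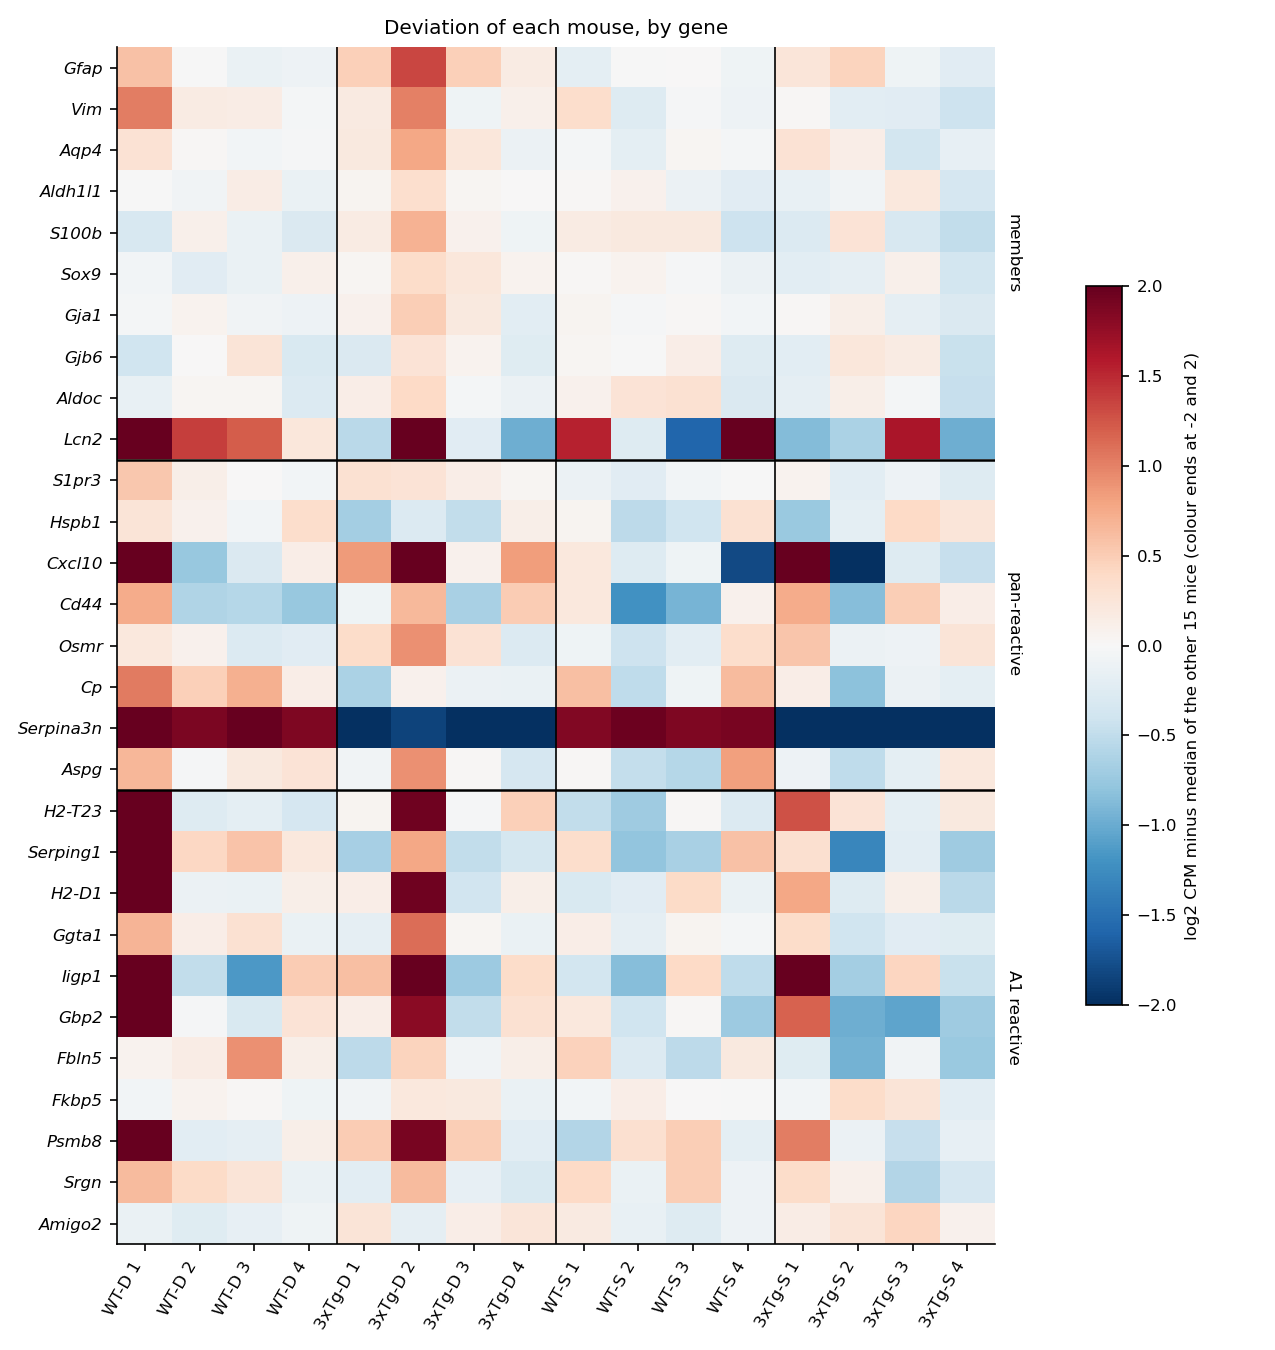
Deviation of each gene in each mouse from the median of the other 15 mice (log2 scale, colour ending at -2 and 2), with the 10 genes, pan-reactive and A1 genes as rows and the 16 mice as columns. 3xTg-D 2 is above the median for all 10 genes, and WT-D 1 mainly for Lcn2, Vim and Gfap.

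Across the 16 mice, log2 CPM of S100b and Aldoc correlated most closely of the member pairs (Pearson r = 0.90), followed by Gfap and Aqp4 (r = 0.89). Without the pair of outlying mice these were 0.88 and 0.69 over 14 mice. Gfap and Vim gave r = 0.67 over 16 mice and 0.04 over 14, so their relation rested on WT-D 1 and 3xTg-D 2. These values are descriptions, since the libraries of a mouse share their depth and tissue composition.

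Among the genes outside the 10, Epb41l2 (r = 0.96 over 16 mice and 0.88 over 14) and Trem2 (0.95 and 0.86) had the profiles most like Gfap. Trem2 encodes a lipid-sensing receptor of microglia. For Aqp4 the most alike were Il13ra1 (r = 0.89 over 16 mice and 0.70 over 14), Trem2 (0.89 and 0.70) and Cd53 (0.88 and 0.70). For Lcn2 they were the complement inhibitor Serping1 (0.88 and 0.68), the MHC class II gene H2-Ab1 (0.87 and 0.58) and Scpep1 (0.85 and 0.70, over 16 and 14 mice). The part of the microglial marker levels in these profiles was not tested.

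**Figure D4:**
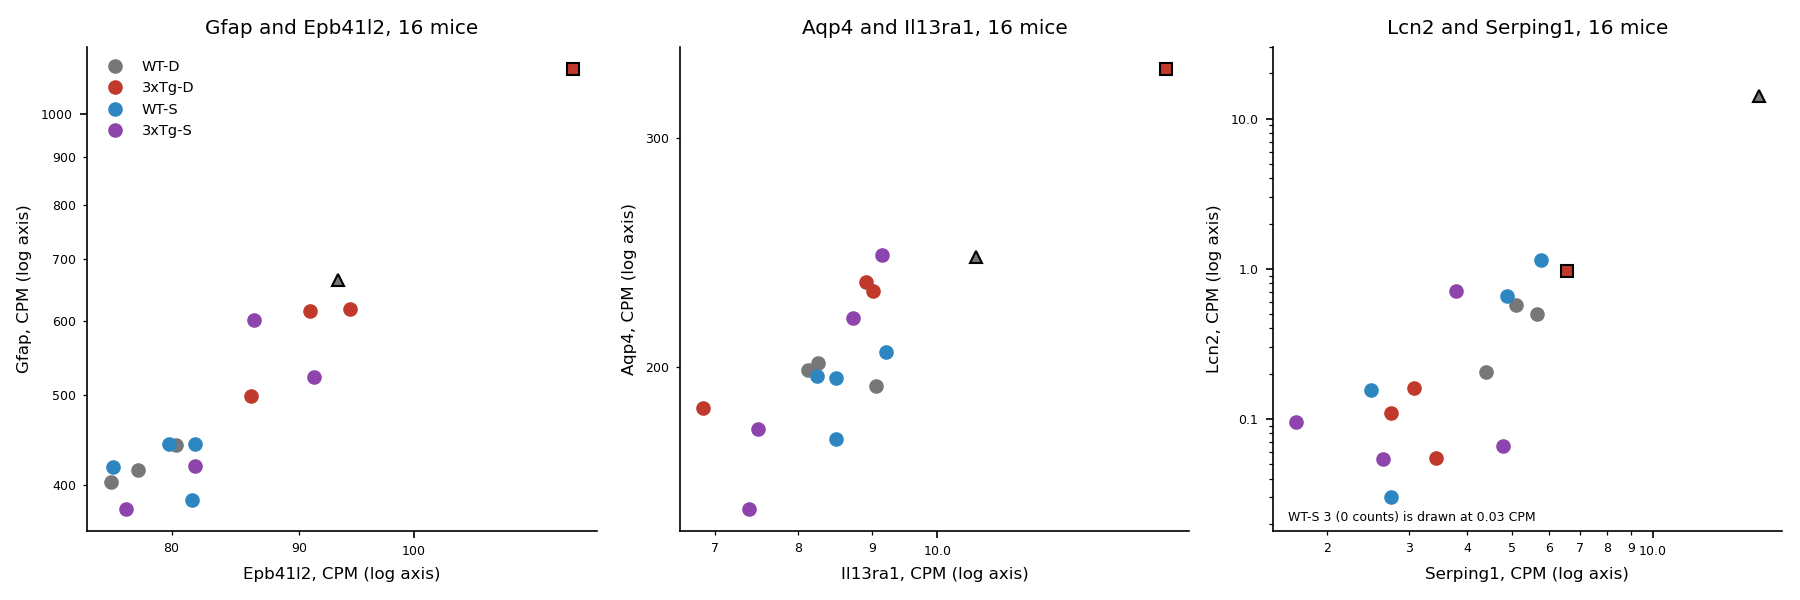
CPM of Gfap, Aqp4 and Lcn2 (y axes) against the gene most like each, Epb41l2, Il13ra1 and Serping1 (x axes), on log axes with 1 symbol per mouse coloured by group (triangle for WT-D 1, square for 3xTg-D 2). 3xTg-D 2 is the highest point for Gfap and Aqp4, and WT-D 1 for Lcn2.

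Other astrocyte genes were described by list. Of 22 further homeostatic genes, 1 was a DEG in the vehicle comparison and 18 had fold changes above 0 (median 0.18). At an unadjusted p under 0.05, 9 of the 22 passed with estimates above 0 and 0 with estimates below, where 12.6% of all tested genes passed. The DEG was Mfge8, which encodes a phagocytic bridging protein. It measured 114, 140.1, 130.6 and 120.8 CPM in the WT-D mice. The 3xTg-D mice had 163.1, 190.3, 152.8 and 149.4 CPM, without overlap, and Mfge8 rose by 0.38 (SE 0.09, adjusted p = 0.0669). In the 3xTg inhibitor comparison 0 of the 22 were DEGs and all 22 fold changes were below 0 (median -0.15). Of these, 2 were at an unadjusted p under 0.05, where 6.33% of all tested genes passed. Leaving out both outlying mice, these medians were 0.04, with 1 DEG and 16 of 22 above 0, and -0.06, with 0 DEGs and 3 of 22 above 0. At an unadjusted p under 0.05 in that vehicle fit, Mfge8 (0.25) remained above 0, and Gjb2 (-0.62) passed below 0. No other gene of the 22 passed there.

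Of 10 pan-reactive genes, 8 were tested, and in the vehicle comparison 0 rose and 2 fell, with a median of -0.17. These were Cp, which encodes the copper ferroxidase ceruloplasmin, and the protease inhibitor gene Serpina3n. Cp was 36.1, 24.4, 28.5 and 19.2 CPM in the WT-D mice. The 3xTg-D mice had 11.9, 18.5, 17.1 and 16.8 CPM, all below every WT-D mouse, and Cp fell by 0.75 (SE 0.19, adjusted p = 0.0919). Serpina3n fell by 2.17 (SE 0.09, adjusted p = 9.636e-07). Cp and Serpina3n were therefore lower in 3xTg-D where the Gfap estimate was above 0. None of the 8 was a DEG in the 3xTg inhibitor comparison (median -0.15), and 1 passed an unadjusted p under 0.05, where 6.33% of all tested genes did. Leaving out both outlying mice, the pan-reactive medians were -0.08, with the same number of DEGs that fell (2), and 0.02, with 5 of 8 above 0.

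Of 12 A1 genes, 11 were tested and 0 were DEGs in the vehicle comparison (median -0.30) or the 3xTg inhibitor comparison (median -0.40). H2-D1, an MHC class I gene, was highest at 125 CPM in WT-D 1, followed by 88.9 CPM in 3xTg-D 2, against 17.1 to 39.2 CPM in the other 14 mice. The glucocorticoid-induced gene Fkbp5 had group means between 76.5 and 82.7 CPM. Without the pair of outlying mice, 1 A1 gene was a DEG in each direction in the vehicle comparison and the median was 0.00, while in the 3xTg inhibitor comparison it was 0.04, with 7 of 11 above 0. Of 12 A2 genes, a list tied to ischemic injury, 10 were tested and 0 were DEGs in either comparison (medians -0.09 and -0.33), with Ptgs2 (cyclooxygenase 2) means of 32.4 to 36.9 CPM and Cd109 means of 14.4 to 17.7 CPM. Without both outlying mice 1 A2 gene, Cd14, was a DEG that rose in the vehicle comparison (0.66), and the medians were 0.01 and -0.26. In that vehicle fit 6 of 6 microglial markers had estimates above 0 (median 0.25), and their part in the Cd14 value was not tested.

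In the complex that anchors Aqp4 at endfeet, 0 of 6 genes were DEGs in the vehicle comparison and 1 rose in the 3xTg inhibitor comparison. That gene was Sntb1 (a syntrophin), at 7.97, 8.14, 8.91 and 7.85 CPM in 3xTg-D mice and 10.3, 12.02, 8.99 and 11.3 CPM in 3xTg-S mice. Every 3xTg-S mouse lay above every 3xTg-D mouse (fold change 0.38, SE 0.11, adjusted p = 0.722). In the fit without both outlying mice the Sntb1 fold change was 0.37 (SE 0.13), just short of the DEG threshold. None of 4 intermediate filament genes was a DEG in either comparison, with the linker gene Plec at means of 85.7 to 104.2 CPM and Synm at 85.3 to 96.4 CPM. Of 10 astrocyte transcription genes 0 were DEGs in either comparison, with the nuclear factor I genes Nfib at means of 236 to 260.5 CPM and Nfix at 176.7 to 188.3 CPM. At an unadjusted p under 0.05 by the edgeR test, the vehicle comparison held 2 of the 11 A1 genes, 1 of the 10 A2 genes, 1 of the 6 anchoring genes, 0 of the 4 filament genes and 1 of the 10 transcription genes. In the 3xTg inhibitor comparison these numbers were 0, 2, 1, 0 and 0. Of all tested genes, 12.6% and 6.33% passed in these comparisons.

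Markers of other cell types moved in part with the groups. Neuronal markers (6 genes) summed to between 5094 and 6431 CPM in the 16 mice. Choroid plexus markers (8 genes) reached 754.5 CPM in WT-D 4 and 301.5 CPM in WT-S 1, against 31.4 to 66.1 CPM in the other 14 mice. Markers of oligodendrocyte precursors (3 genes, 123.1 to 152.6 CPM), pericytes (4 genes, 153 to 261 CPM), leptomeningeal fibroblasts (5 genes, 45.3 to 119.4 CPM) and neural stem cells or neuroblasts (5 genes, 59.0 to 83.9 CPM) spanned these ranges over the 16 mice. Neither WT-D 4 nor WT-S 1 had the highest level of any of the 10 genes among the 16 mice.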

How the data were processed

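The authors trimmed reads with Trimmomatic 0.35, aligned them to GRCm38 with STAR 2.5.1b and deposited raw read counts per gene (Gencode M23) for each mouse; libraries had adapters with molecular identifiers (UMIs), but the strand setting and whether the UMIs were used in counting are not given in the sources used here. From these counts, 4 summary lines that name no gene were removed. Totals per mouse were 15413385 to 23590149 reads. Genes passed edgeR's filterByExpr (minimum count 10, minimum total 15) over the 16 mice, and TMM factors were applied. Each pair of groups (4 mice against 4) was fitted to all tested genes with edgeR 4.0.16 (R 4.3.3) quasi-likelihood tests, two-sided, with Benjamini-Hochberg adjustment over all tested genes; the interaction used all 16 mice. A DEG has an unadjusted p of 0.01 or less, the threshold of the study. DESeq2 1.42.0 and the other settings are in the closing section. The code was tested on simulated data.

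Groups came from the sample labels. The labels do not say that libraries of a group came from separate cages or litters, so p-values measure the spread between these mice. The replicate numbers are shared by the groups. In WT-D vs WT-S the deviations of same-numbered mice correlated at 0.11 to 0.34 over genes, each over 0.1, so the replicate block is given there. In the other pairwise comparisons not every pair was over 0.1, and the block is given mainly in the closing section. Mean correlations were nonetheless 0.24 in WT-S vs 3xTg-S and 0.21 in 3xTg-D vs 3xTg-S, against 0.22 in WT-D vs WT-S. The pairing comes from this check and not from a stated litter or day. The members and gene lists were chosen with earlier results of these data known. The 10 members are all named; of the other lists, up to 4 DEGs per comparison with the smallest p are named, or the 2 genes of highest mean CPM where a list held none, and for Gfap, Aqp4 and Lcn2 up to 3 genes of most similar profile (Pearson r of log2 CPM, prior count 2). Some genes that these rules name are not reported here. Marker lists are given by summed CPM; those for oligodendrocyte precursors, pericytes, leptomeningeal fibroblasts and neural stem cells were computed too. Intervals on counts cover counting error only.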

Additional observations from a re-analysis of the deposited data

Results flagged for a closer look

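In 9 of 40 combinations of gene and group, 1 mouse lay further from the other 3 than Dixon's 95% criterion allows, where chance gives about 1 in 20. WT-D mouse 1 was the high value for Gfap (664.6 CPM), Vim (75.23 CPM), Aqp4 (243 CPM) and Lcn2 (14.15 CPM). 3xTg-D mouse 2 was the high value for Vim (74.3 CPM), Aldh1l1 (57.35 CPM) and Lcn2 (0.9649 CPM). S100b was low in WT-S mouse 4 (96.7 CPM), and Lcn2 was high in 3xTg-S mouse 3 (0.7065 CPM, 11 reads).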

How the results depend on the processing

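The number of the 10 genes called as DEGs was 0 in every comparison and stayed 0 with median-ratio size factors. The cause of the changes below was not tested. With the DESeq2 likelihood ratio test it was 2 in 3xTg-D vs 3xTg-S, 1 in WT-D vs 3xTg-S and 1 for the interaction. With no low-count filter it was 3 in WT-D vs 3xTg-D, 1 in WT-D vs WT-S, 4 in 3xTg-D vs 3xTg-S, 2 in WT-D vs 3xTg-S and 2 for the interaction, where 3.7%, 0.568%, 1.14%, 3.99% and 0.613% of all genes were called. With all 16 mice in 1 fit it was 1 in 3xTg-D vs 3xTg-S (1.51% of all genes) and 1 in WT-D vs 3xTg-S (6.1%). With the replicate block it was 1 in WT-D vs 3xTg-D, 1 in WT-S vs 3xTg-S, 1 in WT-D vs WT-S, 4 in 3xTg-D vs 3xTg-S, 1 in WT-D vs 3xTg-S and 2 for the interaction. The share of all genes called under the block was 5.73%, 8.13%, 0.698%, 6.88%, 6.53% and 3.79% in the same order. In 3xTg-D vs 3xTg-S the 4 were Gfap (-0.52, adjusted p = 0.0373), S100b (-0.38, adjusted p = 0.0247), Sox9 (-0.32, adjusted p = 0.0553) and Vim (-0.52, adjusted p = 0.0945). In every comparison the same-numbered mice share only a number. Their correlations were -0.10 to 0.50 outside WT-D vs WT-S. The mean correlation was 0.22 in WT-D vs WT-S, 0.24 in WT-S vs 3xTg-S and 0.21 in 3xTg-D vs 3xTg-S. It was 0.18 in WT-D vs 3xTg-S and 0.04 in WT-D vs 3xTg-D. With the share of reads outside genes as a covariate, 1 of the 10 was called in WT-D vs 3xTg-D, where 4.54% of all genes were. With the choroid plexus score as a covariate, 2 of the 10 were called in WT-D vs 3xTg-D, 2 in WT-D vs 3xTg-S and 1 for the interaction. The shares of all genes called there were 3.95%, 3.96% and 0.595%. Without WT-D 1 and 3xTg-D 2, chosen after seeing the data, 2 of the 10 were called in WT-D vs 3xTg-D. There 5% of all genes were called. Leaving out 1 mouse at a time gave 0 to 1 for the 3xTg inhibitor comparison and likewise for WT-D vs 3xTg-D, 0 to 2 in WT-D vs WT-S and in WT-D vs 3xTg-S, and 0 to 3 for the interaction. In those fits the share of all genes called was 0.407% to 4.53% and 3.95% to 5.6% in the first 2 comparisons. It was 0.132% to 3.1% in WT-D vs WT-S, 3.98% to 9.27% in WT-D vs 3xTg-S and 0.341% to 2.95% for the interaction.

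Of 512 log2 fold changes of single genes under the alternatives, 439 kept direction and side of the threshold, 50 passed it and 23 changed sign. With the reads-outside covariate, Aqp4 was -0.0011 and Gjb6 -0.0886 in WT-D vs 3xTg-D, and Gjb6 was 0.1535 in 3xTg-D vs 3xTg-S (0.0658 with the choroid plexus score). Without WT-D 1 and 3xTg-D 2, Gjb6 reached -0.1539 (WT-D vs 3xTg-D) and 0.0973 (3xTg-D vs 3xTg-S), Lcn2 was 0.9516 in 3xTg-D vs 3xTg-S, and Gfap was 0.0107 and Lcn2 0.1495 in WT-D vs WT-S. Leaving out 1 mouse at a time, Vim ranged from -0.3336 to 0.2769 and Gjb6 from -0.0666 to 0.19 in WT-D vs 3xTg-D, Gfap from -0.2593 to 0.0136 and Lcn2 from -3.825 to 0.1531 in WT-D vs WT-S, and Gjb6 from -0.1285 to 0.093 and Lcn2 from -2.1662 to 0.9475 in 3xTg-D vs 3xTg-S. With 4 mice a group, intervals of most genes allow differences of either sign, and Lcn2 rests on few reads in 15 of 16 mice.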
